A study of Homo sapiens with 6 samples.

Results

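The 51 genes described here encode proteins that load the replicative helicase at DNA replication origins, fire those origins and copy DNA at the fork. They were taken by name from a list of replication genes, which was chosen with earlier results of these data known. All 51 were found among the 27754 genes of the deposited count files, and all 51 were among the 15657 genes with enough counts to test. RNA sequencing was done on T47D cells, a luminal-like human breast cancer line that expresses estrogen and progesterone receptors. Cells grew attached to plastic in RPMI medium with 10% FBS. The labels give 20% O2 for the 3 normoxia libraries and 0.5% O2 in an incubation chamber, for 48 h, for the 3 hypoxia libraries, whereas the text of the study names another O2 level for hypoxia and the labels give no time for normoxia. No gene was edited and no drug was given, so O2 was the one labelled difference. All libraries come from 1 cell line. The study describes its replicates as independent experiments and the sequenced samples as hypoxia and normoxia pairs, and p-values measure the spread between these libraries.

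Replication starts at origins that are marked by the origin recognition complex (ORC). In G1 phase, CDC6 and CDT1 help ORC to load the ring of MCM2 to MCM7 onto DNA, a step called licensing. At the start of S phase, the CDC7-DBF4 kinase drives the recruitment of CDC45 and GINS, which turn the MCM ring into the active helicase. Polymerases, the sliding clamp PCNA and its loader RFC, the single-strand binding complex RPA and the enzymes that join Okazaki fragments then act behind the helicase. Transcription of many of these genes is driven by E2F factors and peaks near the entry into S phase, so their RNA is commonly read as a sign of proliferation.

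The 6 libraries held 32989104 to 89883409 counts, with hypoxia replicate 3 the deepest. Genes of the hypoxia response checked the labels: 10 of 10 were higher in hypoxia by edgeR's quasi-likelihood test, and their summed level was 216.9 to 253.9 CPM (counts scaled to library size) in normoxia and 2313 to 2419 CPM in hypoxia. Luminal markers summed to 13959 to 18122 CPM in normoxia and 10194 to 13473 CPM in hypoxia. Of the genes that mark T47D as receptor positive, ESR1 and PGR fell, with log2 fold changes of −1.86 and −2.93. Luminal markers did not move as 1 group. Of 10 tested, 4 fell, 5 did not pass (KRT8, KRT18, KRT19, EPCAM and CDH1) and TFF1 rose (1.14, edgeR adjusted p 0.035). The shares were thus 40% lower and 10% higher, beside 29.1% and 30.4% of all tested genes. A fit that also allowed for replicate number called KRT8 and KRT18 lower as well (edgeR adjusted p 7.55e-05 and 0.00107). CDH1 was then higher (edgeR adjusted p 0.00965), giving 6 lower and 2 higher. Of all tested genes, 35.2% were lower and 36.6% higher in that fit. Markers of other cell types were low: endothelial markers summed to between 0 and 0.656 CPM, immune markers to 1.87 to 2.36 CPM in normoxia and 7.39 to 9.19 CPM in hypoxia, and mesenchymal or basal markers to 87.1 to 129.6 CPM over both conditions. Most of the immune sum was CD68, at a mean of 1.31 CPM in normoxia and 6.8 CPM in hypoxia. Most of the mesenchymal or basal sum was COL1A1, at 88.7 and 84.3 CPM. Of 6 tested mesenchymal or basal markers, AXL rose (log2 fold change 1.97, edgeR adjusted p 2.33e-04) and 5 did not pass. No marker on these lists was at 0 in every library. The libraries numbered 3 stood apart from the others in both conditions. Counts of VIM, a mesenchymal filament gene, were 7, 12 and 395 over normoxia and 35, 35 and 1001 over hypoxia, in the order of replicates 1 to 3. Results are therefore given with and without replicate 3, and the part of these markers in the replication gene results was not tested. In bulk RNA, fewer cells in S phase and less RNA per cell cannot be told apart.

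RNA of replication genes was lower in hypoxia across nearly the whole list. Of the 51 genes, 48 (94.1%) fell at an adjusted p under 0.05 in edgeR's quasi-likelihood test and 0 rose. Among all tested genes, 29.1% fell and 30.4% rose, so that 51.1% of calls were higher in hypoxia. With upper-quartile factors, 64.5% of calls were higher, 21% of all genes fell, and 42 of the 51 replication genes fell. ORC3, ORC6 and CDT1 did not pass, although ORC6 did in edgeR's exact test and in DESeq2. No gene of the list rose at an unadjusted p under 0.05 either (0 in edgeR's quasi-likelihood test, 0 in edgeR's exact test and 0 in DESeq2). The median log2 fold change was −0.84, beside 0.03 for all tested genes, and single genes ranged from −1.67 for MCM5 to −0.15 for ORC3. A fall by a log2 change of at least 1 was called for 23 genes (45.1%), beside 4.91% of all genes. Ranked among all tested genes, 31 of the 51 were within the lowest 10% of log2 fold changes and 47 within the lowest 25%.

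The change was present in each same-numbered pair of libraries but was smaller in pair 3. All 51 genes were lower in hypoxia in all 3 pairs with TMM scaling (48 with upper-quartile factors), beside 40.1% of all tested genes. The median log2 ratio was −1.03 in pair 1, −0.97 in pair 2 and −0.72 in pair 3, and 43 of the 51 genes had their smallest change in pair 3. In hypoxia replicate 3, 48 of the 51 genes were above the hypoxia mean, and in normoxia replicate 3, 45 were above the normoxia mean. Their median log2 deviations were 0.33 and 0.12, beside 0.01 and −0.01 for all tested genes. Every hypoxia library was below every normoxia library for 47 genes, beside 32.4% of all tested genes, the exceptions being ORC6, CDT1, MCM8 and POLD1. With the replicate number as a block, 50 genes fell, beside 35.2% of all genes, since ORC6 and CDT1 then passed. Without replicate 3, 50 genes fell, beside 34.8% of all genes, and the median was −0.99.

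**Figure D1:**
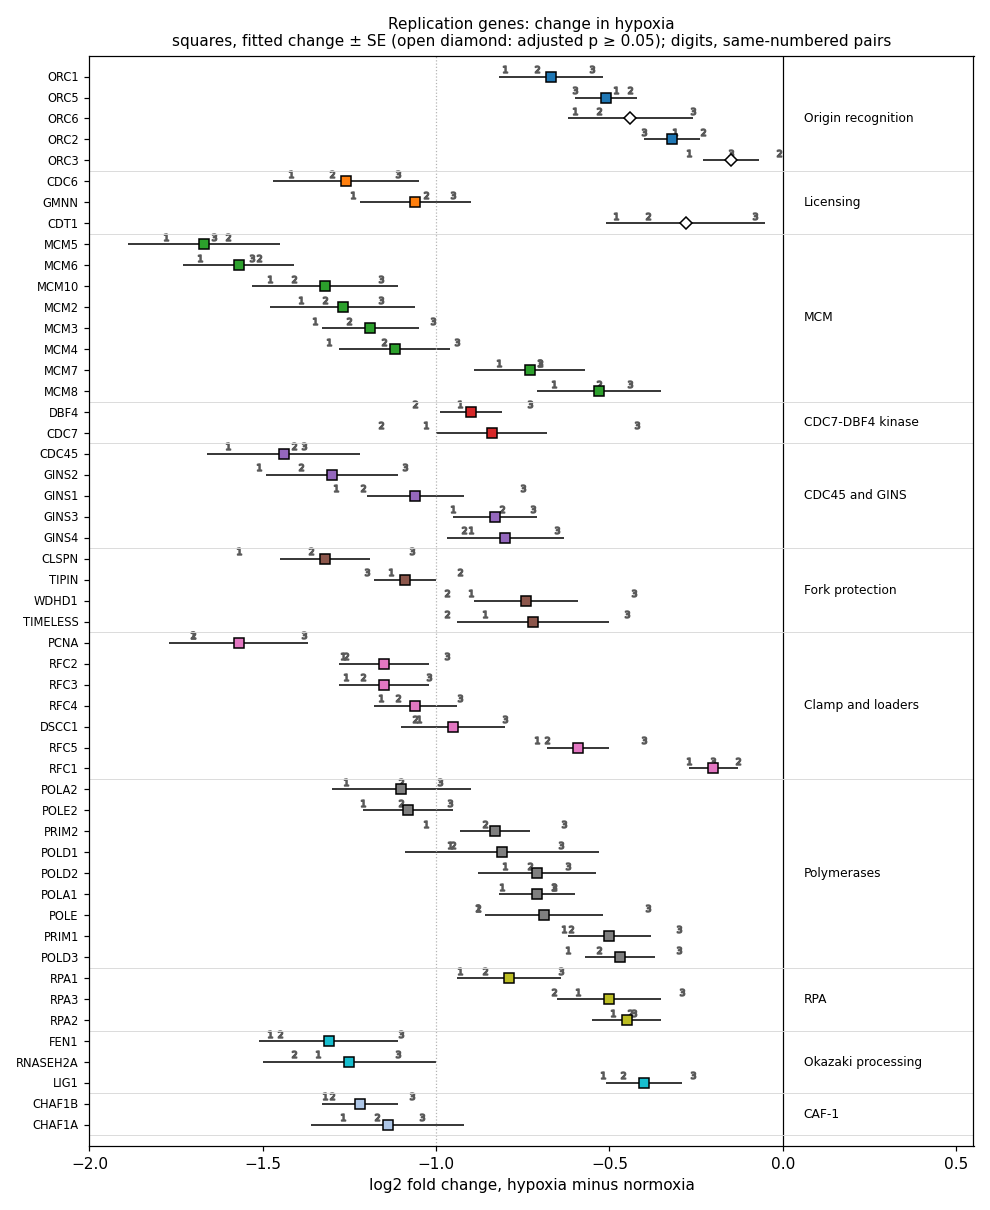
Log2 fold change of the 51 replication genes, hypoxia minus normoxia, on the horizontal axis, with genes grouped by role on the vertical axis. Squares are fitted changes with their SE, open diamonds are the 3 genes that did not pass, and the digits 1 to 3 are the same-numbered pairs; all 51 fitted changes lie left of 0 with TMM scaling, from −1.67 to −0.15 (ORC3 is at 0.01 with upper-quartile factors).

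Summed over the list, replication RNA was at 5956, 5232 and 6661 CPM in normoxia replicates 1, 2 and 3, and at 2806, 2613 and 3799 CPM in hypoxia replicates 1, 2 and 3. The means were 5949 ± 715 CPM (SD, n = 3) and 3073 ± 636 CPM (SD, n = 3), so the hypoxia sum was 51.7% of the normoxia sum. The groups did not overlap.

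**Figure D2:**
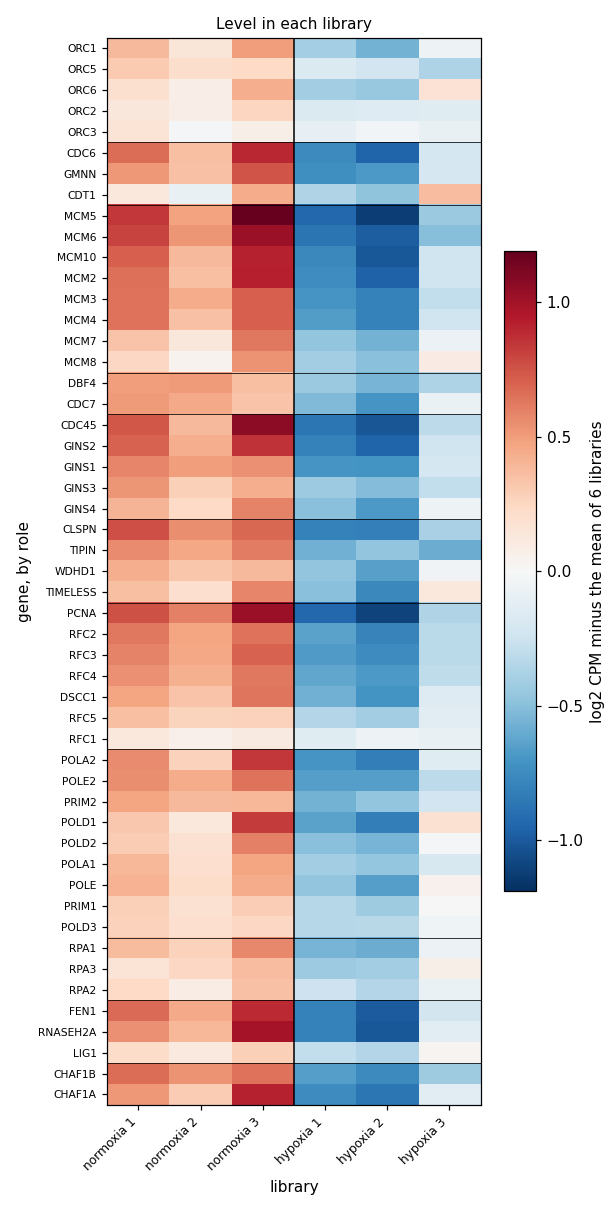
Level of each of the 51 genes (vertical axis, by role) in each of the 6 libraries (horizontal axis), as log2 CPM minus the gene's mean over the 6 libraries. Red is above and blue is below that mean; hypoxia replicate 3 is the palest of the hypoxia columns, and CDT1 is red in that library.

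Promoter sequence was read from RefSeq (table of build GRCh38.p14, 250 bases before to 50 after each gene's start), which matched 44 of the 51 genes. MCM4, MCM5, GINS4, DSCC1, POLD3, RPA2 and RPA3 have no entry. The E2F words searched on both strands were TTTCCCGC, TTTCGCGC, TTTGCCGC and TTTGGCGC, which can overlap each other on opposite strands. At least 1 word was in 19 of 44 promoters of replication genes (43.2%), 3.31% of the 35116 promoters in the table and 5.07% of the 11350 promoters of tested genes. Of 21 genes with a promoter that fell by a log2 change of at least 1, 11 held a word, and of the 23 others, 8 did. The median log2 fold change was −1.08 for the 19 genes with a word and −0.83 for the 25 without. CCAAT, the box bound by NF-Y, was in 59.1% of these promoters, 34.6% of all promoters and 36.5% of those of tested genes, again on either strand. Of the cores of hypoxia response elements, ACGTG was in 31.8% of these promoters, 21.4% of all and 26.2% of those of tested genes. GCGTG was in 56.8%, 36.5% and 49.8%. The other motifs searched were TTTGAA (CHR, in 2.27% of these promoters and 15.2% of all), GGGCGG (SP1, 75% and 45%) and CACGTG (the E-box, which contains ACGTG, 18.2% and 7.26%). In promoters of tested genes, the shares were 9.59% for CHR, 68.5% for SP1 and 9.92% for the E-box. The SP1 share of 75% was thus closer to that of tested genes than to the 45% of all promoters. Split by these motifs, the medians of genes with and without a match differed in both directions. They were −0.76 and −0.98 for CCAAT, −0.76 and −0.98 for ACGTG, and −0.83 and −1.10 for GGGCGG. For GCGTG they were −1.06 and −0.83, for CACGTG −0.93 and −0.87, and for TTTGAA, held by DBF4 alone, −0.90 and −0.84. These splits are descriptions with no test. A match is a string of letters and not a shown binding site, and binding was not measured.

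Windows of at most 30 bases around E2F words that lie wholly before the RefSeq start are given for genes from several steps of replication, chosen after their values were seen. They set the strongly lowered MCM6, PCNA and GINS2 beside ORC3, which also holds an E2F word and had the smallest change of the list. Capitals mark the E2F words, sequences run 5′ to 3′ on the strand of the gene, and coordinates are GRCh37, found by exact match. The window of ORC3 (chr6:88299832-88299852, plus strand) lies wholly inside the gene's own span in the deposited annotation and overlaps a GENCODE exon of ORC3. That of GINS2 (chr16:85722575-85722600, minus strand) reaches into its gene's span, with no GENCODE exon inside. Those of CDT1 (chr16:88870153-88870178, plus strand), MCM3 (chr6:52149698-52149723, minus strand), MCM6 (chr2:136634145-136634174 and chr2:136634083-136634112, minus strand), PCNA (chr20:5107311-5107336, minus strand) and POLA1 (chrX:24711889-24711914, plus strand) lie before the span of their gene, with no GENCODE exon inside.
ORC3: cgagggcgcGCGGGAAAtccc
CDT1: agggcgcccGCGGGAAAtttggcggg
MCM3: gatggtacgTTTCCCGCcaccgcggg
MCM6, far copy: ggctttgcaTTTGGCGCGAAAtccctttcc
MCM6, near copy: ttggtcaggTTTGGCGCGAAAtctccagct
GINS2: ctcgccgtgGCGGGAAAacggcggcc
PCNA: gcgtcagggGCGGGAAAaggcgtgcg
POLA1: catcacaggGCGCCAAAcgcgcgtcc
The MCM6 promoter held the same 12-base stretch in both windows, in which TTTGGCGC and GCGCGAAA, the reverse complement of TTTCGCGC, overlap, giving 4 words in all, the most of any gene of the list. ORC3, CDT1, GINS2 and PCNA share the word GCGGGAAA, the reverse complement of TTTCCCGC, though their log2 fold changes ran from −0.15 for ORC3 to −1.57 for PCNA.

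Origin recognition had the smallest median change of the 11 role groups, −0.44, with 3 of 5 subunits lower. ORC1 (chr1:52838501-52870143, minus strand, GRCh37), the subunit whose protein is made and destroyed with each cell cycle, was at 28.9, 24.4 and 31.1 CPM in normoxia and at 16.7, 14.9 and 21.2 CPM in hypoxia, in replicate order 1 to 3 as in all lists of CPM that follow. All hypoxia libraries were below all normoxia libraries, and ORC1 fell, with a log2 fold change of −0.67 (SE 0.15, edgeR adjusted p 0.00658). ORC3 (chr6:88299785-88377172, plus strand), a core subunit, was at 51.9, 45.7 and 48.5 CPM in normoxia and at 43.2, 45.3 and 43.6 CPM in hypoxia. Its groups did not overlap but lay close, and its log2 fold change was −0.15 (SE 0.08, edgeR adjusted p 0.149), with 0.01 under upper-quartile factors. ORC3 had an adjusted p of 0.0849 with the replicate block. ORC6, the small subunit, was at 31.0, 28.6 and 36.6 CPM and then at 20.4, 19.8 and 30.5 CPM. Hypoxia replicate 3 was above normoxia replicate 2. ORC6 had a log2 fold change of −0.44 (SE 0.18, edgeR adjusted p 0.0668), which passed in edgeR's exact test (adjusted p 0.0408), in DESeq2 (adjusted p 0.0358), with the replicate block (adjusted p 0.0014) and without hypoxia replicate 3 (−0.68, adjusted p 0.00267). The core subunits ORC2 and ORC5 fell (log2 fold changes −0.32 and −0.51). Without both libraries numbered 1, ORC1 and ORC2 did not pass (edgeR adjusted p 0.0789 and 0.138), and ORC2 did not pass with upper-quartile factors (−0.16, adjusted p 0.097).

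Of 3 licensing genes, 2 were lower, with a median of −1.06. CDC6, the ATPase that recruits CDT1-bound MCM to ORC, was at 140.7, 113.6 and 166.1 CPM in normoxia and at 52.6, 46.0 and 76.9 CPM in hypoxia. The groups were far apart, and CDC6 fell, with a log2 fold change of −1.26 (SE 0.21, edgeR adjusted p 0.00151). GMNN, or geminin, which binds CDT1 and blocks licensing after S phase has begun, fell (log2 fold change −1.06, SE 0.16). CDT1, the MCM loading factor, was at 106.7, 92.2 and 132.9 CPM in normoxia and at 76.6, 70.3 and 126.2 CPM in hypoxia. Hypoxia replicate 3 was above normoxia replicates 1 and 2, so the groups overlapped. Its log2 fold change of −0.28 did not pass (SE 0.23, edgeR adjusted p 0.324), though it did with the replicate block (−0.31, adjusted p 0.00828) and without hypoxia replicate 3 (−0.59, adjusted p 0.0114). Per length, on the scale of RPKM (reads scaled to library size and exon length), the ratio of CDT1 to GMNN was 0.874, 0.853 and 0.931 in normoxia and 1.49, 1.33 and 1.71 in hypoxia. The ratio was thus higher in every hypoxia library than in any normoxia library, as a description with no test.

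MCM genes were lower in 8 of 8, with a median of −1.23. MCM5 (chr22:35796116-35820495, plus strand, GRCh37), a subunit of the helicase ring, was at 96.7, 75.3 and 123.4 CPM in normoxia and at 28.2, 24.8 and 39.7 CPM in hypoxia. Its groups were separated by a wide gap, and MCM5 fell, with a log2 fold change of −1.67 (SE 0.22, edgeR adjusted p 5.79e-04), to 31.5% of the normoxia level. The ring subunits MCM6, MCM2, MCM3, MCM4 and MCM7 fell (log2 fold changes −1.57, −1.27, −1.19, −1.12 and −0.73). MCM10, which joins the helicase at firing and is not part of the ring, fell (log2 fold change −1.32). MCM8, which acts with MCM9 in recombination repair and not in the ring, was at 90.3, 78.3 and 110.5 CPM in normoxia and at 57.1, 54.0 and 81.3 CPM in hypoxia. Hypoxia replicate 3 was above normoxia replicate 2. MCM8 fell (log2 fold change −0.53, SE 0.18, edgeR adjusted p 0.0347), a call lost in 4 of 6 fits that left out 1 library (adjusted p 0.0629, 0.0849, 0.112 and 0.107 without normoxia replicates 1 and 3 and hypoxia replicates 1 and 2). MCM8 passed with the replicate block (edgeR adjusted p 1.03e-04). MCM7 did not pass without both libraries numbered 1 (adjusted p 0.0574), and its exons share 8.95% of their length with AP4M1 on the opposite strand.

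As a sum, the 6 ring subunits were at 1631, 1359 and 1829 CPM in normoxia and at 662.4, 605.0 and 892.7 CPM in hypoxia, or 44.8% of the normoxia mean. Although the ring holds its subunits in equal number, their RNA levels per length were unequal. In normoxia they ran from 38.7 RPKM for MCM5 to 109.5 RPKM for MCM3, and in hypoxia from 12.1 to 48 RPKM for the same genes. The ratio of highest to lowest was 2.83 in normoxia and 3.96 in hypoxia. MCM10 kept a nearly fixed ratio to MCM2, at 0.322 ± 0.00693 in normoxia and 0.309 ± 0.00564 in hypoxia (SD, n = 3, RPKM), with no test made.

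The kinase that triggers firing was lower in both of its subunits. DBF4, the regulatory subunit, was at 53.3, 53.7 and 48.4 CPM in normoxia and at 27.9, 25.8 and 29.3 CPM in hypoxia. The groups were tight and did not overlap, and DBF4 fell, with a log2 fold change of −0.90 (SE 0.09, edgeR adjusted p 1.63e-04). CDC7, the catalytic subunit, was at 31.1, 29.9 and 27.7 CPM and then at 15.2, 13.4 and 20.7 CPM. It also showed no overlap, fell (log2 fold change −0.84, SE 0.16, edgeR adjusted p 0.00292), and varied more between pairs, from −1.16 in pair 2 to −0.42 in pair 3. DBF4 shares 3.81% of its exon length with SLC25A40 on the opposite strand.

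Helicase activators were lower in 5 of 5 genes, with a median of −1.06. CDC45, which bridges the MCM ring and GINS, was at 48.6, 38.2 and 60.9 CPM in normoxia and at 16.0, 14.4 and 23.5 CPM in hypoxia. No library of one condition reached the other, and CDC45 fell, with a log2 fold change of −1.44 (SE 0.22, edgeR adjusted p 0.0011). GINS4 was at 52.0, 46.1 and 59.0 CPM and then at 27.8, 24.4 and 37.6 CPM, again without overlap, and fell (log2 fold change −0.80, SE 0.17, edgeR adjusted p 0.00446). GINS2, GINS1 and GINS3 fell (log2 fold changes −1.30, −1.06 and −0.83). The GINS subunits, which form a complex of equal parts, were very unequal in RNA per length, from 6.29 RPKM for GINS3 to 152.0 RPKM for GINS2 in normoxia, and from 3.54 to 61.5 RPKM for the same genes in hypoxia. GINS4 stood at the threshold without both libraries numbered 1 (adjusted p 0.05) and was not called.

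Fork protection genes were lower in 4 of 4, with a median of −0.92. CLSPN, or claspin, which carries the checkpoint signal from ATR to CHK1 at the fork, was at 52.7, 45.6 and 49.8 CPM in normoxia and at 17.8, 17.7 and 23.7 CPM in hypoxia. The groups were well separated, and CLSPN fell, with a log2 fold change of −1.32 (SE 0.13, edgeR adjusted p 1.89e-04). TIMELESS, which with TIPIN couples the helicase to the polymerases, was at 171.5, 153.4 and 199.2 CPM and then at 94.4, 78.4 and 145.4 CPM. Hypoxia replicate 3 came close to normoxia replicate 2 without crossing it. TIMELESS fell (log2 fold change −0.72, SE 0.22, edgeR adjusted p 0.0212), while its partner TIPIN fell (log2 fold change −1.09, SE 0.09). WDHD1, which links the helicase to polymerase alpha, fell (log2 fold change −0.74). TIMELESS did not pass without hypoxia replicate 1 (adjusted p 0.0737) or hypoxia replicate 2 (adjusted p 0.0546). It passed with the replicate block (edgeR adjusted p 1.78e-04). WDHD1 did not pass without both libraries numbered 1 (adjusted p 0.051).

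Clamp and clamp loader genes were lower in 7 of 7, with a median of −1.06, and ran from the most changed PCNA to the least changed RFC1. PCNA (chr20:5095599-5107268, minus strand), the clamp that holds polymerases on DNA, was at 331.0, 296.7 and 398.2 CPM in normoxia and at 102.0, 91.1 and 152.8 CPM in hypoxia. The lowest normoxia library was far above the highest hypoxia library, and PCNA fell, with a log2 fold change of −1.57 (SE 0.20, edgeR adjusted p 4.91e-04), to 33.8% of the normoxia level. RFC1, the large subunit of the clamp loader, was at 107.0, 102.5 and 105.5 CPM and then at 88.7, 93.7 and 92.0 CPM. The groups did not overlap although the shift was small, and RFC1 fell (log2 fold change −0.20, SE 0.07, edgeR adjusted p 0.0349). The small loader subunits RFC2, RFC3, RFC4 and RFC5 fell (log2 fold changes −1.15, −1.15, −1.06 and −0.59). DSCC1, part of the alternative loader that takes the place of RFC1 in cohesion, fell (log2 fold change −0.95). The RPKM ratio of PCNA to RFC1 was 11.1 ± 1.57 in normoxia and 4.28 ± 1.21 in hypoxia (SD, n = 3). The RFC1 call was lost with upper-quartile factors (−0.04, adjusted p 0.636), in edgeR's exact test (adjusted p 0.0585), with no filter on low counts (adjusted p 0.0648) and in 5 of 6 fits without 1 library (adjusted p 0.121, 0.0501, 0.0635, 0.136 and 0.0684 without normoxia replicates 1, 2 and 3 and hypoxia replicates 1 and 2). RFC1 passed with the replicate block (edgeR adjusted p 0.0112). PCNA shares 26.6% of its exon length with the opposite-strand gene PCNA-AS1, and the strand setting of the counting is not given in the sources used here.

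Polymerase and primase genes were lower in 9 of 9, with a median of −0.71. POLA2, the accessory subunit of the primer-making polymerase alpha, was at 105.0, 86.4 and 127.7 CPM in normoxia and at 43.8, 40.2 and 64.4 CPM in hypoxia. Its groups did not overlap, and POLA2 fell, with a log2 fold change of −1.10 (SE 0.20, edgeR adjusted p 0.00249). POLD3, an accessory subunit of the lagging-strand polymerase delta, was at 57.9, 55.1 and 57.0 CPM and then at 37.8, 38.1 and 46.4 CPM. Normoxia libraries were close to one another and above all hypoxia libraries, and POLD3 fell (log2 fold change −0.47, SE 0.10, edgeR adjusted p 0.00443). The catalytic subunits POLA1, POLD1 and POLE fell (log2 fold changes −0.71, −0.81 and −0.69), and the accessory subunits POLE2 and POLD2 also fell (−1.08 and −0.71). Of the primase subunits, PRIM2 fell (log2 fold change −0.83) and the catalytic PRIM1 also fell (−0.50). POLD1 overlapped between groups, at 62.8, 54.9 and 89.4 CPM in normoxia and 32.3, 28.5 and 57.2 CPM in hypoxia. Its edgeR adjusted p of 0.0377 became 0.0556, 0.0969, 0.117 and 0.108 without normoxia replicates 1 and 3 and hypoxia replicates 1 and 2. By pair, its log2 ratios were −0.96, −0.95 and −0.64, and it passed with the replicate block (edgeR adjusted p 3.32e-05). PRIM1, POLD2, POLD3 and POLE did not pass without both libraries numbered 1 (adjusted p 0.108, 0.061, 0.0894 and 0.0944).

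RPA, which coats single-stranded DNA in replication and repair, was lower in 3 of 3 subunits. RPA1, the large subunit, was at 233.4, 217.8 and 267.4 CPM in normoxia and at 122.6, 119.8 and 171.9 CPM in hypoxia. The groups stood apart, and RPA1 fell, with a log2 fold change of −0.79 (SE 0.15, edgeR adjusted p 0.00287). RPA2, the middle subunit, was at 57.8, 52.0 and 62.2 CPM and then at 41.2, 38.3 and 46.3 CPM. It too had no overlap and fell (log2 fold change −0.45, SE 0.10, edgeR adjusted p 0.00688), with nearly equal changes in the 3 pairs (−0.49, −0.44 and −0.43). RPA3, the small subunit, fell (log2 fold change −0.50), and 9.42% of its exon length overlaps UMAD1 on the opposite strand. Its call was lost without hypoxia replicate 1 (adjusted p 0.0699) or hypoxia replicate 2 (adjusted p 0.0642). With the replicate block, RPA3 passed (edgeR adjusted p 5.58e-04). RPA2 did not pass without both libraries numbered 1 (adjusted p 0.0944).

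Okazaki fragment enzymes were lower in 3 of 3, by unequal amounts. FEN1, the nuclease that trims displaced flaps, was at 274.9, 236.7 and 319.3 CPM in normoxia and at 98.8, 86.9 and 148.7 CPM in hypoxia. The groups were widely separated, and FEN1 fell, with a log2 fold change of −1.31 (SE 0.20, edgeR adjusted p 0.00114). LIG1, the ligase that seals the remaining nick, was at 79.2, 73.5 and 82.9 CPM and then at 55.3, 53.3 and 69.3 CPM. Hypoxia replicate 3 was just below normoxia replicate 2, and LIG1 fell (log2 fold change −0.40, SE 0.11, edgeR adjusted p 0.0165), a call lost without hypoxia replicate 1 (adjusted p 0.0657) or hypoxia replicate 2 (adjusted p 0.058). LIG1 passed with the replicate block (edgeR adjusted p 7.07e-04). RNASEH2A, the catalytic subunit of the enzyme that removes ribonucleotides from DNA, fell (log2 fold change −1.25, SE 0.25).

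Both listed genes of chromatin assembly factor 1 (CAF-1), which places histones on new DNA and is recruited by PCNA, were lower. CHAF1B was at 57.8, 52.8 and 57.1 CPM in normoxia and at 23.1, 21.5 and 27.2 CPM in hypoxia. Libraries were tight within each condition, and CHAF1B fell, with a log2 fold change of −1.22 (SE 0.11, edgeR adjusted p 1.16e-04). CHAF1A was at 68.4, 59.0 and 90.0 CPM and then at 28.3, 26.2 and 43.7 CPM, also without overlap, and fell (log2 fold change −1.14, SE 0.22, edgeR adjusted p 0.00329). The RPKM ratio of CHAF1B to CHAF1A was 1.13 in normoxia and 1.07 in hypoxia, so these partners stayed close in level per length.

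Per length, the replication genes were well expressed in both conditions. In normoxia they ran from 5.34 RPKM for CLSPN to 237.1 RPKM for PCNA with a median of 26 RPKM, beside a median of 6.75 RPKM over all tested genes. In hypoxia the range was 2.13 to 80 RPKM with a median of 14.7 RPKM, beside 6.83 RPKM over all tested genes. The order of the genes was largely kept, with a Spearman correlation of 0.91 between conditions over the 51 genes, which share libraries and gene lengths. The lowest count of any gene in any library was 287, for GINS3.

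**Figure D3:**
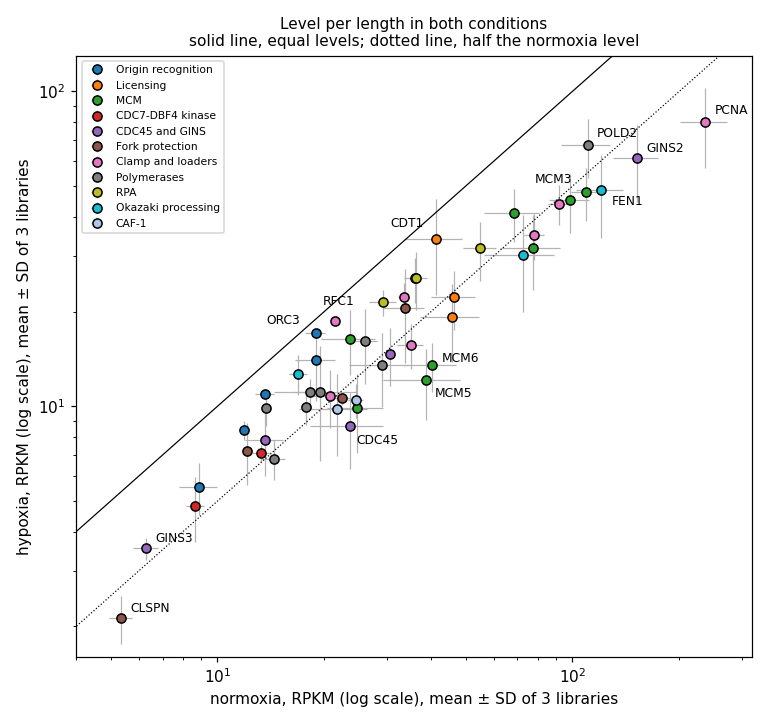
Mean level per length of the 51 genes in normoxia (horizontal axis) and hypoxia (vertical axis), both in RPKM on log scales, with bars for the SD of 3 libraries and colour for role. The solid line marks equal levels and the dotted line marks 50% of normoxia; all 51 genes lie below the solid line with TMM scaling, with ORC3, RFC1 and CDT1 nearest to it and PCNA the highest at 237.1 RPKM in normoxia.

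Other genes of DNA replication, outside the list of 51, mostly fell. Of 39 tested, 29 fell (74.4%) and 2 rose (5.13%), with a median of −0.51. Among all tested genes, 29.1% fell and 30.4% rose. UHRF1, which couples DNA methylation to replication, fell with a log2 fold change of −1.76, TONSL, which protects stalled forks, with −1.34, and RECQL4, a helicase linked to origin firing, with −1.30. The 2 that rose were POLD4, the smallest subunit of polymerase delta (log2 fold change 0.86, SE 0.12, edgeR adjusted p 7.12e-04), and SMARCAL1, a fork-remodelling enzyme (log2 fold change 0.40, SE 0.07, edgeR adjusted p 0.00236). Polymerase delta thus had 3 subunits that fell (POLD1, POLD2 and POLD3) and 1 that rose. ORC4, the core ORC subunit outside the list, had a log2 fold change of −0.09 (edgeR adjusted p 0.426).

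Genes of nucleotide supply fell more often than they rose. Of 15 tested, 9 fell (60%) and 2 rose (13.3%), with a median of −0.76. The shares over all tested genes were 29.1% and 30.4%. CTPS1, which makes CTP, fell with a log2 fold change of −2.37, TYMS, which makes thymidylate, with −1.42, and SAMHD1, which breaks dNTPs down, with −1.03. RRM2B, the ribonucleotide reductase subunit used outside S phase, rose (log2 fold change 0.77, SE 0.12, edgeR adjusted p 0.00122). Its S-phase counterpart RRM2, named after its value was seen, fell (log2 fold change −0.49, SE 0.18, edgeR adjusted p 0.045). GUK1, guanylate kinase, rose (log2 fold change 0.31, SE 0.11, edgeR adjusted p 0.0396).

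The change was not limited to S-phase genes. Of 31 tested mitosis genes, 29 fell (93.5%) and 0 rose, beside 29.1% and 30.4% of all tested genes. Their median was the same as that of the replication list, −0.84. AURKA, CCNB1 and BUB1, which drive mitotic entry and the spindle checkpoint, fell (log2 fold changes −1.35, −1.33 and −1.20). Among 10 checkpoint genes, 6 fell (60%) and 0 rose, with a median of −0.53. CDC25A, the phosphatase that activates CDK2, fell with a log2 fold change of −1.73, CHEK1, the kinase that restrains it under replication stress, with −1.0, and ATRIP, the partner of ATR, with −0.95. Of 13 E2F and pocket protein genes, 9 fell (69.2%) and 0 rose, with a median of −0.41. The activators E2F2 and E2F1 fell (log2 fold changes −1.58 and −1.53), and the repressor E2F6 also fell (−0.88).

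**Figure D4:**
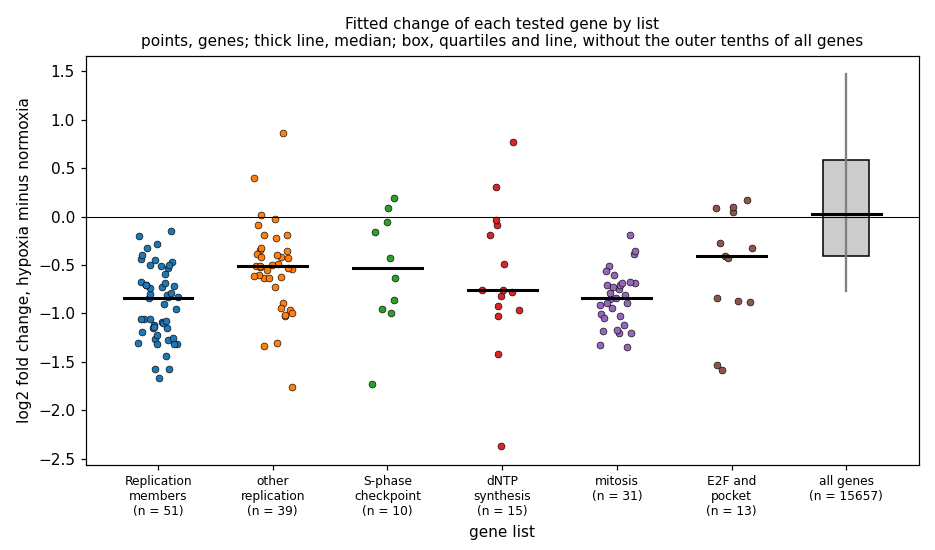
Log2 fold change, hypoxia minus normoxia (vertical axis), of each tested gene of 6 lists, with all 15657 tested genes as a box at the right. Points are genes, thick lines are medians, the box spans the quartiles of all genes and its thin line leaves out the lowest and highest 10%. The medians of the replication list and the mitosis list are both −0.84, and those of the other lists lie between −0.76 and −0.41, beside 0.03 for all genes.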

How the data were processed

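The authors sequenced stranded mRNA libraries, trimmed adapters with Skewer, aligned reads to GRCh37 (hg19) with STAR 2.5.2a and used featureCounts 1.5.1 to count reads over RefSeq genes, after FastQC 0.11.5 (versions from the submitters' processing notes). The deposited values are raw counts, 1 file per library. The strand setting and the handling of reads with several matches are not given in the sources used here, so counts of overlapping genes are uncertain.

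Counts were analysed with DESeq2 1.42.0, limma 3.58.1 and edgeR 4.0.16 in R 4.3.3, and figures were drawn in Python 3.11.15 with matplotlib 3.10.9. Genes passing filterByExpr (minimum count 10, minimum total count 15) were fitted with TMM factors and condition as the one term. For the 15657 genes kept, p-values came from edgeR's quasi-likelihood test with Benjamini-Hochberg adjustment at 0.05. The SE is the absolute log2 fold change over the square root of F. CPM and RPKM use TMM-scaled totals, and RPKM the exon length in the files. The test was tried on simulated counts first. Same-numbered libraries deviated together from their condition means (correlations across genes of 0.338, 0.422 and 0.575). Libraries numbered 3 stood apart in both conditions, and correlations between differently numbered libraries are not given here. These values therefore cannot settle the pairing of replicates 1 and 2. The numbers were taken to pair the libraries, as the study treats its samples as pairs without naming them. No libraries of a condition were duplicates: the closest, hypoxia replicates 1 and 2, differed by 6.09 in chi-square over its degrees of freedom, above sampling noise.

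The 51 genes and all other lists were chosen with earlier results of these data known. Full statistics are given for the most and least changed gene of each of 11 roles, and up to 3 called genes with the largest changes are named from each other list. POLD4, SMARCAL1, RRM2B and GUK1 were named as well because they rose. ORC6, POLD1, VIM, COL1A1, ORC4 and RRM2 were added after their values were seen. Alternatives covered the test, the scaling, the filter, depth, thresholds, the block and left-out libraries.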

Additional observations from a re-analysis of the deposited data

How the results depend on the processing

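Over 17 other fits, 32 of the 51 genes kept their call and direction, and 19 did not in at least 1 fit. The count of replication genes that fell was 48 in edgeR's exact test, 49 in DESeq2, 48 with RLE factors, 47 with no filter and 48 after thinning all libraries to the smallest. Of all genes, 29.3%, 30.6%, 29.6%, 20.3% and 29.1% fell in these fits, in the same order. The count in the main fit was 41 at an adjusted p under 0.01, a threshold at which the share of all genes is not given here. It was 23 at an adjusted p under 0.05 with a log2 change of at least 1, beside 4.91% of all genes. Upper-quartile factors moved the median of all genes from 0.03 to 0.19, and the share of calls that were higher from 51.1% to 64.5%. Under them 42 replication genes fell, beside 21% of all genes, the median was −0.69, and ORC3 turned to 0.01. The calls lost were ORC2 (−0.16, adjusted p 0.097), MCM8 (−0.37, 0.0775), RFC1 (−0.04, 0.636), POLD1 (−0.65, 0.0602), RPA3 (−0.34, 0.0527) and LIG1 (−0.25, 0.0655). In no fit did a gene of the list rise at an adjusted p under 0.05. Leaving out 1 library gave 42 to 50 genes, beside 22.5% to 31.1% of all genes. The median was then −1.05 (without hypoxia replicate 3) to −0.80 (without hypoxia replicate 2). Leaving out both libraries of a number gave 32 genes and a median of −0.76 without replicate 1. Calls over all genes were fewer too in that fit (2191 or 13.9% lower, beside 4551 or 29.1%). The count was 42 without replicate 2 (19.8% of all genes) and 50 without replicate 3 (34.8%). With the replicate block, 50 genes fell, beside 35.2% of all genes, and the median was −0.86. Besides ORC6 and CDT1, the block changed no other call on the list. The block without replicate 3, added after seeing the data, also gave 50, beside 36.6% of all genes.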
